A study of Homo sapiens with 18 samples.

Results

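The 32 genes described here encode chaperones of the endoplasmic reticulum (ER), the machinery that returns misfolded proteins from the ER for degradation, stress sensors of the unfolded protein response, and parts of the channel through which new proteins enter the ER. They were chosen by gene symbol, and all 32 were found among the 26485 genes of both expression tables. They comprised 16 folding genes, 9 degradation genes, 4 genes grouped as sensors with XBP1, and 3 translocation genes. Expression was measured by poly(A) RNA-seq in PANC-1 cells, an established human pancreatic ductal adenocarcinoma line, 72 h after the start of each treatment, in 18 libraries of 6 groups of 3. The first experiment used a control siRNA and a pair of siRNAs against PKR, which the labels number and which are called siRNA 1 and siRNA 2 below. PKR, encoded by EIF2AK2, is a kinase that is activated by double-stranded RNA and phosphorylates the translation initiation factor eIF2α. In the second experiment, cells received DMSO, the solvent, or C16, a small-molecule inhibitor of PKR, at 400 nM or 800 nM. The labels place the siRNA libraries in run 1 and the C16 libraries in run 2, so that the experiment and the run cannot be told apart. The 2 tables were normalised separately, and each comparison was made within its own table. All samples came from a single cell line harvested at a single time, and the labels do not say whether replicates were separate cultures, so that p-values measure the spread between these libraries, which may be technical.

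Proteins that enter the ER are folded by chaperones such as BiP (HSPA5), by the lectins calnexin (CANX) and calreticulin (CALR), and by protein disulfide isomerases. Proteins that fail to fold are retrotranslocated to the cytosol and degraded by the proteasome, a process called ER-associated degradation. When unfolded proteins accumulate, the sensors IRE1α (ERN1), ATF6 and PERK (EIF2AK3) are activated. IRE1α splices the mRNA of XBP1 into the form that encodes an active transcription factor, ATF6 is cleaved to release one, and PERK phosphorylates eIF2α, the same substrate as PKR. ATF6 and XBP1 act on chaperone genes through short promoter elements, among them the ER stress response elements ERSE and ERSE-II and the unfolded protein response element UPRE.

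At least 1 of these elements was matched in 11 of the 30 genes with a promoter entry, and the matches are shown first. RefSeq promoter sequences (GRCh38.p14, from 250 bases before to 50 after the start) were matched for 30 of the 32 genes; DERL1 and PDIA3 were without an entry. Each was searched on both strands for ERSE (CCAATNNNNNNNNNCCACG), ERSE-II (ATTGGNCCACG) and UPRE (TGACGTGG). ERSE was present in 7 of the 30 genes and in 0.0916% of all 27305 genes with a promoter entry. ERSE-II was present in 3 of the 30 genes and in 0.0696% of all genes, and UPRE in 2 of the 30 genes and in 0.927% of all genes. The genes were chosen for their place in the response that acts through these elements. The higher shares follow from that choice and are no independent result. Sites are printed from 5′ to 3′ on the strand of the gene with 8 flanking bases on each side. Capitals mark the match, which begins with CGTGG or CCACGTCA where the element lies opposite to the gene. A match is a description of these letters and not a binding site.
HSPA5 (ERSE, chr9:125241391-125241409, minus strand): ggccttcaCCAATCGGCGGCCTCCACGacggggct
HSP90B1 (ERSE, chr12:103930216-103930234, plus strand): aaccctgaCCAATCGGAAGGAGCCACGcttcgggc
HSP90B1 (ERSE, chr12:103930321-103930339, plus strand): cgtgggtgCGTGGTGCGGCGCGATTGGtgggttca
CALR (ERSE, chr19:12938384-12938402, plus strand): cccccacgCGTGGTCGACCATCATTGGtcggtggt
CANX (ERSE, chr5:179698778-179698796, plus strand): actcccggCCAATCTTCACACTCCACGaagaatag
PDIA6 (ERSE, chr2:10812853-10812871, minus strand): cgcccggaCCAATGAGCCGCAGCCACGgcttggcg
CRELD2 (ERSE, chr22:49918554-49918572, plus strand): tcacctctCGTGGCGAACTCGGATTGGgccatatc
XBP1 (ERSE, chr22:28800603-28800621, minus strand): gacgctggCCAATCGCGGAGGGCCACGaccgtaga
HYOU1 (ERSE-II, chr11:119057274-119057284, minus strand): gcctgggaCGTGGTCCAATgagtacgc
HYOU1 (ERSE-II, chr11:119057380-119057390, minus strand): ccccgtgaCGTGGTCCAATcccaggcc
SDF2L1 (ERSE-II, chr22:21642114-21642124, plus strand): ctcggaagCGTGGACCAATcaaaaccc
HERPUD1 (ERSE-II, chr16:56932025-56932035, plus strand): ggacgccgATTGGGCCACGttgggaga
DNAJC10 (UPRE, chr2:182716132-182716139, plus strand): gcacaccgCCACGTCAacctaaac

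Positions are relative to the start of the promoter entry searched, and the CANX match fell in 3 entries, of which the first is used. In that entry it spans the start, from 9 bases before it to 10 bases after it, and the other matches lie upstream of theirs. The gene coordinates used for counting differ. By those, the DNAJC10 and PDIA6 matches lie inside the gene. The HSP90B1 match at chr12:103930321-103930339 crosses the start, and the CANX match lies before it. The second UPRE match was in HYOU1 (chr11:119057386-119057393, minus strand), where it overlaps one of the ERSE-II matches. The 250 bases upstream of HSPA5 and of HYOU1 are shown whole because these are abundant chaperone genes that were higher at both doses of C16, with capitals marking every match.
HSPA5 (chr9:125241344-125241593, minus strand): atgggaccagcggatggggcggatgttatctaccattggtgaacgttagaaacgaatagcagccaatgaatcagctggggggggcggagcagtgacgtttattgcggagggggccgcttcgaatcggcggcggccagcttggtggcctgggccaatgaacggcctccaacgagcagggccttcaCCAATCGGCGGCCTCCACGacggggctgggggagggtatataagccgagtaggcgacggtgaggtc
HYOU1 (chr11:119057206-119057455, minus strand): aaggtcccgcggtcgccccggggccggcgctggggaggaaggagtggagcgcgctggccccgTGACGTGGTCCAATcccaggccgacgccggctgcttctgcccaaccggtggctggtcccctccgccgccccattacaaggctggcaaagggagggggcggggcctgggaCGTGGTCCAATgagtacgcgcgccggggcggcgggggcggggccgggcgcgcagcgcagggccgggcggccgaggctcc

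EIF2AK2 was at 93.5 to 103 normalised read counts with the control siRNA, 9.65 to 13.6 with siRNA 1 and 7.96 to 9.40 with siRNA 2, which matched the labels. It was at 45.7 to 54.1 with DMSO, 39.2 to 45.7 with 400 nM C16 and 48.7 to 51.4 with 800 nM. Between 1512940 and 1873906 reads were assigned to genes per siRNA library, and between 894145 and 1474308 per C16 library. Replicates of a group differed by more than the counting error, since chi-square divided by its degrees of freedom was 1.03 to 1.63 in the 18 pairs. The highest values were those of DMSO replicate 3, at 1.63 and 1.37 against replicates 1 and 2, which had 1.08 between them, and it was also the deepest C16 library. Without it, 5 of the genes described here were raised at 400 nM, and 8 were raised and 1 lowered at 800 nM, where all 9 libraries gave 6, 8 and 1. ERN1, too low to be tested with all 9 libraries, passed the minimum mean without DMSO replicate 3 and was tested. The counts with and without that library are therefore not of the same genes. MANF and XBP1 were no longer raised at 400 nM without it (log2 fold changes of 0.50 and 0.58), and SDF2L1 was no longer raised at 800 nM (0.58). The epithelial keratins KRT8, KRT18 and KRT19 stood at 519 or above in every library, while EPCAM and CDH1 were as low as 9.40 and 9.07. All 5 acinar and 3 islet markers, PTPRC and PECAM1 were at 0 or near 1 count, whereas CD68 was at 51.0 to 273.

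The genes differed widely in level. Per kilobase of exon, CALR was the most abundant of the 32 with both the control siRNA (739.8 normalised counts per kb) and DMSO (512), followed by P4HB (639.9 and 449.8) and HSP90B1 (511 and 343). ERN1 was the least abundant at 2.35 and 1.16. ATF6B is left out of this order, since its counted exon length of 10464 bases sums 4 copies of the gene, of which 3 lie on alternate sequences of the genome and 1, of 2616 bases, on chromosome 6. How reads that match several copies were counted is not given in the sources used here. All values of ATF6B are uncertain for this reason. For PDIA6, 29.7% of the exon bases also belong to ATP6V1C2, which runs in the other direction, and whether counting used the strand is not stated, so that its values are uncertain as well. HSP90B1 shared 4.58% of its exon bases with MIR3652 on the same strand.

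The 32 genes together took a larger share of the reads with C16 than with DMSO. They made up 0.862% to 0.885% of the reads assigned to genes in the DMSO libraries, 1.06% to 1.07% at 400 nM and 1.13% to 1.15% at 800 nM, and the 3 groups did not overlap. The 16 folding genes accounted for most of this, with 0.695% to 0.716%, 0.862% to 0.875% and 0.925% to 0.947%, respectively. In the siRNA table, the share of the 32 genes was 0.792% to 0.811% with the control siRNA, 0.868% to 0.881% with siRNA 1 and 0.891% to 0.892% with siRNA 2. The folding genes again stood higher with both siRNAs, at 0.613% to 0.639%, 0.701% to 0.716% and 0.713% to 0.717%. A share of the reads is set by the most abundant genes, and it cannot tell a change in every cell from a change in the number of cells that express a gene.

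**Figure D1:**
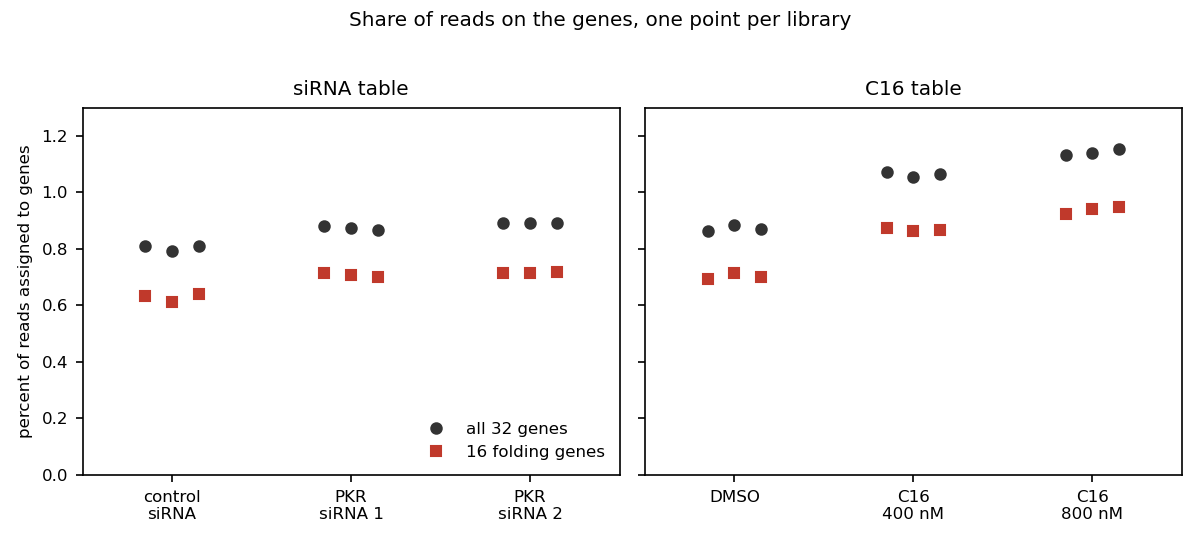
Percent of the reads assigned to genes that fell on the 32 genes (circles) and on the 16 folding genes (squares), with 1 point per library. The siRNA groups are on the left and the C16 groups on the right, and the 32 genes lie between 0.792% and 0.892% in the former and between 0.862% and 1.15% in the latter.

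Each gene was then tested by itself with limma on log2(normalised count + 1). A gene is called raised or lowered below where its Benjamini-Hochberg adjusted p, taken over all genes tested in the table, was under 0.05 and its fold change was over 1.5, which is 0.585 on the log2 scale. At 400 nM C16, 6 of the 31 genes tested (19.4%) were raised and 0 lowered, where 7.08% of all 9963 genes were raised and 5.45% lowered. The 6 became 2 with a pseudocount of 5 (HSPA5 and HYOU1) and 3 after median-of-ratios rescaling. By the adjusted p alone, 15 of the 31 were higher and 1 lower, beside 14.6% and 11.9% of all genes. At 800 nM C16, 8 of 31 (25.8%) were raised and 1 lowered, beside 11.6% and 14.1% of all genes. By the adjusted p alone, 19 (61.3%) were higher and 2 lower, beside 22.3% and 22.6%. The median log2 fold change of the genes was 0.27 at 400 nM and 0.35 at 800 nM, and that of all genes was 0.00 at both doses. ERN1 was under the minimum mean of 10 normalised counts in the C16 table and was not tested there.

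The siRNAs gave a mixed picture. With siRNA 1, 5 of 32 (15.6%) were raised and 2 (6.25%) lowered, beside 8.53% and 12.6% of the 10593 genes tested. The number raised was 3 without control replicate 1 or without siRNA 1 replicate 3, and the number lowered was 1 without control replicate 2 or without siRNA 1 replicate 1. With siRNA 2 the counts were again 5 raised and 2 lowered, beside 10.8% and 12.8% of all genes. By the adjusted p alone, 12 were higher and 6 lower with siRNA 1, where all genes gave 21.1% and 23.9%. With siRNA 2, 10 were higher and 9 lower by the adjusted p alone, where all genes gave 22.1% and 25.2%. The median log2 fold change of the 32 genes was 0.09 with siRNA 1 and -0.05 with siRNA 2, and that of all genes was -0.01 in both comparisons. Only CANX, HERPUD1 and EDEM3 were raised with both siRNAs, 2 comparisons that share their control libraries.

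**Figure D2:**
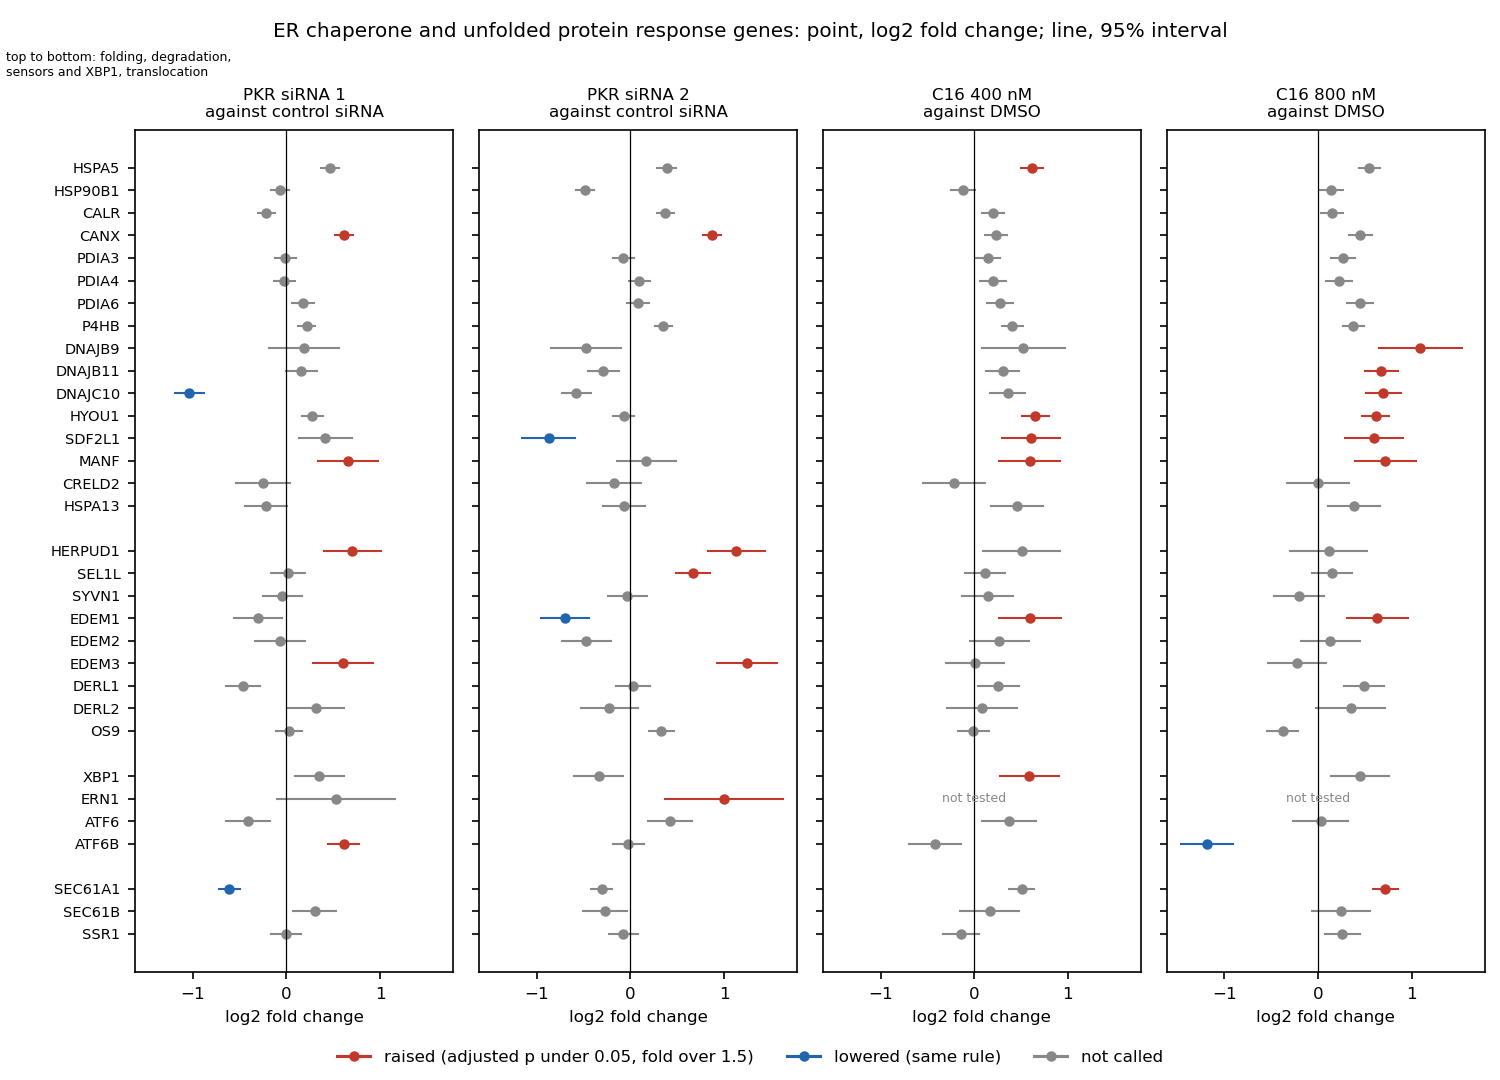
Log2 fold change (points) and 95% interval (lines) of each of the 32 genes in the 4 comparisons with a control, grouped from top to bottom into folding, degradation, sensor and translocation genes. With 800 nM C16, 8 genes are raised (red) and ATF6B alone is lowered (blue), whereas raised and lowered genes occur with each siRNA.

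Of the 16 folding genes, 4 were raised at 400 nM C16 (HSPA5, HYOU1, SDF2L1 and MANF) and 6 at 800 nM (DNAJB9, DNAJB11, DNAJC10, HYOU1, SDF2L1 and MANF), beside 7.08% and 11.6% of all genes. At either dose 0 were lowered, beside 5.45% and 14.1% of all genes. The median log2 fold change was 0.33 and 0.45. By the adjusted p alone, 12 were higher at 400 nM and 14 at 800 nM, beside 14.6% and 22.3% of all genes. On the same measure 0 were lower at either dose, beside 11.9% and 22.6% of all genes. HSP90B1 and CRELD2 were the 2 folding genes without an adjusted p under 0.05 at 800 nM.

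HSPA5 (chr9:125234848-125241387, minus strand, hg38) encodes BiP, the main Hsp70 chaperone of the ER lumen. It had 1002, 1046 and 999 normalised counts in the DMSO libraries, 1535, 1606 and 1528 at 400 nM and 1412, 1529 and 1513 at 800 nM. Every C16 library was above every DMSO library. The log2 fold change was 0.62 (SE 0.06, adjusted p = 2.45e-13) at 400 nM and 0.55 (SE 0.06, adjusted p = 6.10e-12) at 800 nM, just below the 1.5-fold mark. HYOU1 (chr11:119044185-119057246, minus strand), a large Hsp70-like protein that exchanges nucleotide on BiP, had 434, 476 and 544 counts with DMSO, 739, 761 and 776 at 400 nM and 727, 685 and 813 at 800 nM. It was raised at both doses, by 0.65 (SE 0.07, adjusted p = 9.60e-11) and 0.61 (SE 0.07, adjusted p = 2.43e-10), and every C16 library was above the DMSO group. Without DMSO replicate 1 the HYOU1 values fell under the 1.5-fold mark, at 0.57 and 0.54, and without 800 nM replicate 3 the value at 800 nM was 0.55.

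The Hsp40 co-chaperones, which deliver clients to BiP and stimulate its ATPase, passed the 1.5-fold mark at 800 nM and not at 400 nM. At 400 nM every library of each gene was nevertheless above its DMSO group. DNAJB9 (ERdj4; chr7:108569745-108574850, plus strand) had 19.4, 18.1 and 18.3 counts with DMSO, 34.0, 27.7 and 21.3 at 400 nM and 40.3, 39.0 and 42.9 at 800 nM. Its log2 fold change of 1.09 at 800 nM (SE 0.22, adjusted p = 4.59e-05) was the largest rise among the 31 genes tested with C16. At 400 nM its value was 0.52 (adjusted p = 0.0708), and 0.69 (adjusted p = 0.0294) without 400 nM replicate 3. DNAJB11 (ERdj3; chr3:186570676-186585800, plus strand) had 194, 210.5 and 184 counts with DMSO, 241, 243 and 240.4 at 400 nM and 288, 327 and 327 at 800 nM. DNAJC10 (ERdj5, a disulfide reductase that prepares proteins for degradation; chr2:182716041-182780023, plus strand) had 156, 163 and 169.8, then 187, 214 and 227, and then 279, 261 and 255. For both genes the 3 groups were in the same order without overlap. The log2 fold changes at 400 nM were 0.30 for DNAJB11 and 0.36 for DNAJC10. Those at 800 nM were 0.68 for DNAJB11 (SE 0.09, adjusted p = 3.68e-09) and 0.70 for DNAJC10 (SE 0.09, adjusted p = 8.33e-09).

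MANF and SDF2L1 encode BiP-associated proteins and had low read counts on short exon lengths of 963 and 874 bases. MANF (chr3:51385237-51389397, plus strand), an ER-resident protein that can be secreted, had 46.6, 37.1 and 34.3 counts with DMSO, 67.0, 53.0 and 58.5 at 400 nM and 55.5, 70.7 and 69.7 at 800 nM. SDF2L1 (chr22:21642253-21644299, plus strand), a partner of DNAJB11, had 47.6, 52.4 and 48.0, then 69.1, 99.2 and 62.8, and then 80.7, 67.0 and 78.2. Every C16 library was above every DMSO library for both genes. MANF was raised by 0.59 (SE 0.165, adjusted p = 0.00495) and 0.72 (SE 0.165, adjusted p = 2.73e-04), and SDF2L1 by 0.61 (SE 0.15, adjusted p = 0.00188) and 0.60 (SE 0.15, adjusted p = 0.00107). The rises at 400 nM lay near the threshold. MANF gave 0.55 with a pseudocount of 5, 0.58 after median-of-ratios rescaling, an adjusted p of 0.0546 with DESeq2, and 0.56, 0.50 and 0.50 without DMSO replicate 2, DMSO replicate 3 or 400 nM replicate 1, and SDF2L1 gave 0.57 with a pseudocount of 5, and 0.58 and 0.41 (adjusted p = 0.0682) without DMSO replicate 1 or 400 nM replicate 2. At 800 nM the call for SDF2L1 was lost with a pseudocount of 5 (0.56) and without DMSO replicate 1 (0.57), DMSO replicate 3 (0.58), 800 nM replicate 1 (0.55) or 800 nM replicate 3 (0.57).

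The abundant lectins and disulfide isomerases moved less. CANX, a membrane-bound lectin chaperone, had means of 988, 1162 and 1353 counts with DMSO, 400 nM and 800 nM and log2 fold changes of 0.23 (adjusted p = 0.00203) and 0.45 (adjusted p = 4.73e-09). CALR, its soluble counterpart, had 0.20 (adjusted p = 0.00837) and 0.15 (adjusted p = 0.0321). P4HB, the classical protein disulfide isomerase, was higher by 0.41 and 0.37, PDIA4 by 0.20 and 0.23, and PDIA6 by 0.28 and 0.45, all at an adjusted p under 0.05. PDIA3, the isomerase that works with the lectins, was higher at 800 nM (0.27, adjusted p = 6.22e-04) and had 0.15 at 400 nM (adjusted p = 0.0916). HSPA13, an Hsp70-like protein, was higher by 0.46 and 0.38. HSP90B1 (GRP94), the Hsp90 chaperone of the ER, had -0.12 (adjusted p = 0.154) and 0.14 (adjusted p = 0.0639), and CRELD2, a small ER stress protein, had -0.21 and 0.00.

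**Figure D3:**
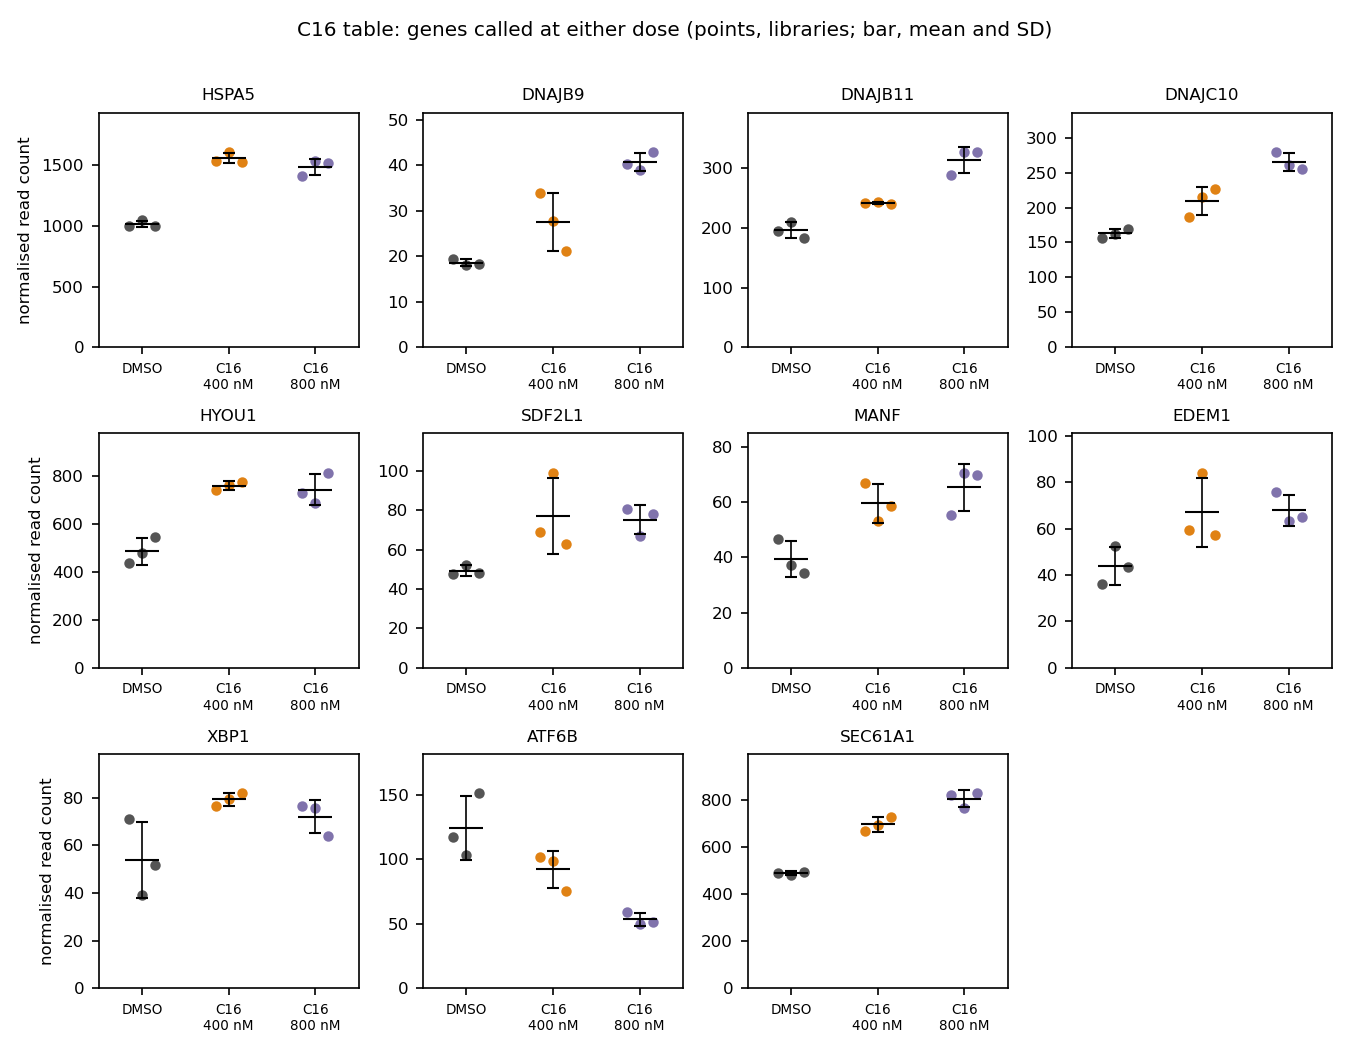
Normalised read counts of the 11 genes called at either dose of C16, with 1 point per library and the mean and SD of 3 libraries as a bar, on axes that start at 0. DNAJB11, DNAJC10 and SEC61A1 step up from DMSO to 400 nM to 800 nM, HSPA5 and HYOU1 stand at similar levels at both doses, and ATF6B steps down.

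The same folding genes did not move together with the PKR siRNAs. CANX (chr5:179698929-179731638, plus strand) had 1066, 1033 and 965 counts with the control siRNA, 1517, 1505 and 1666 with siRNA 1 and 1892, 1835 and 1893 with siRNA 2. It was raised by 0.61 (SE 0.05, adjusted p = 2.55e-18) and 0.88 (SE 0.05, adjusted p = 7.71e-27), and the 3 groups did not overlap. Its value with siRNA 1 was 0.57 without control replicate 3 or without siRNA 1 replicate 3. HSPA5 had 1310.3, 1233 and 1314 counts with the control siRNA, 1837, 1890.2 and 1604 with siRNA 1 and 1628, 1741 and 1674 with siRNA 2. BiP mRNA was thus higher in every siRNA library, by 0.46 (adjusted p = 7.67e-13) and 0.39 (adjusted p = 3.60e-10), without passing 1.5-fold.

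DNAJC10 was lowered with siRNA 1. It had 411, 391 and 395 counts with the control siRNA, 207, 190.5 and 185 with siRNA 1, and 265, 274 and 261 with siRNA 2. The log2 fold change was -1.04 (SE 0.08, adjusted p = 1.51e-19) with siRNA 1 and -0.58 (SE 0.08, adjusted p = 1.90e-09) with siRNA 2, just inside 1.5-fold, and passed that mark without control replicate 2 (-0.59), control replicate 3 (-0.59) or siRNA 2 replicate 2 (-0.60). No siRNA library overlapped the control group. MANF had 43.1, 45.1 and 58.8 counts with the control siRNA, 60.0, 90.7 and 83.9 with siRNA 1 and 53.7, 52.5 and 58.3 with siRNA 2. It was raised with siRNA 1 (0.66, SE 0.16, adjusted p = 4.22e-04), with values of 0.57 and 0.54 without control replicate 1 or siRNA 1 replicate 2, and it overlapped the control with siRNA 2 (0.17, adjusted p = 0.391).

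SDF2L1 stood on opposite sides of the control with the 2 siRNAs. It had 67.8, 74.1 and 83.4 counts with the control siRNA, 97.7, 96.1 and 107 with siRNA 1 and 41.8, 36.5 and 43.3 with siRNA 2. It was lowered by siRNA 2 (-0.87, SE 0.14, adjusted p = 3.46e-07), and its value with siRNA 1 was 0.42 (SE 0.14, adjusted p = 0.0135). CALR and HSP90B1, both abundant, also differed between the siRNAs. CALR had log2 fold changes of -0.21 (adjusted p = 1.28e-04) with siRNA 1 and 0.37 (adjusted p = 2.79e-10) with siRNA 2. HSP90B1 had -0.07 (adjusted p = 0.269) and -0.48 (adjusted p = 7.96e-14). Both sets of values stayed under 1.5-fold.

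DNAJB9 had 41.1, 38.7 and 54.0 counts with the control siRNA, 46.7, 53.5 and 51.1 with siRNA 1 and 41.8, 25.7 and 29.2 with siRNA 2. The log2 fold change with siRNA 2 was -0.47 (adjusted p = 0.0323) and with siRNA 1 0.19 (adjusted p = 0.438). Without siRNA 2 replicate 1, which stood at 41.8, the former was -0.67 (adjusted p = 0.00617), past 1.5-fold. DNAJB11 had 253, 247 and 285 counts with the control siRNA, 287, 278 and 312 with siRNA 1 and 202, 231 and 209 with siRNA 2, for 0.16 (adjusted p = 0.113) and -0.29 (adjusted p = 0.00251). HYOU1 had 781, 751 and 765, then 915, 989 and 879, and then 736, 742 and 711, for 0.27 (adjusted p = 3.19e-05) and -0.07 (adjusted p = 0.317). P4HB was higher with both siRNAs, by 0.22 and 0.35. PDIA6 was higher with siRNA 1 (0.18, adjusted p = 0.0128) and had 0.08 with siRNA 2. PDIA3, PDIA4, CRELD2 and HSPA13 had values between -0.25 and 0.10 with no adjusted p under 0.05.

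**Figure D4:**
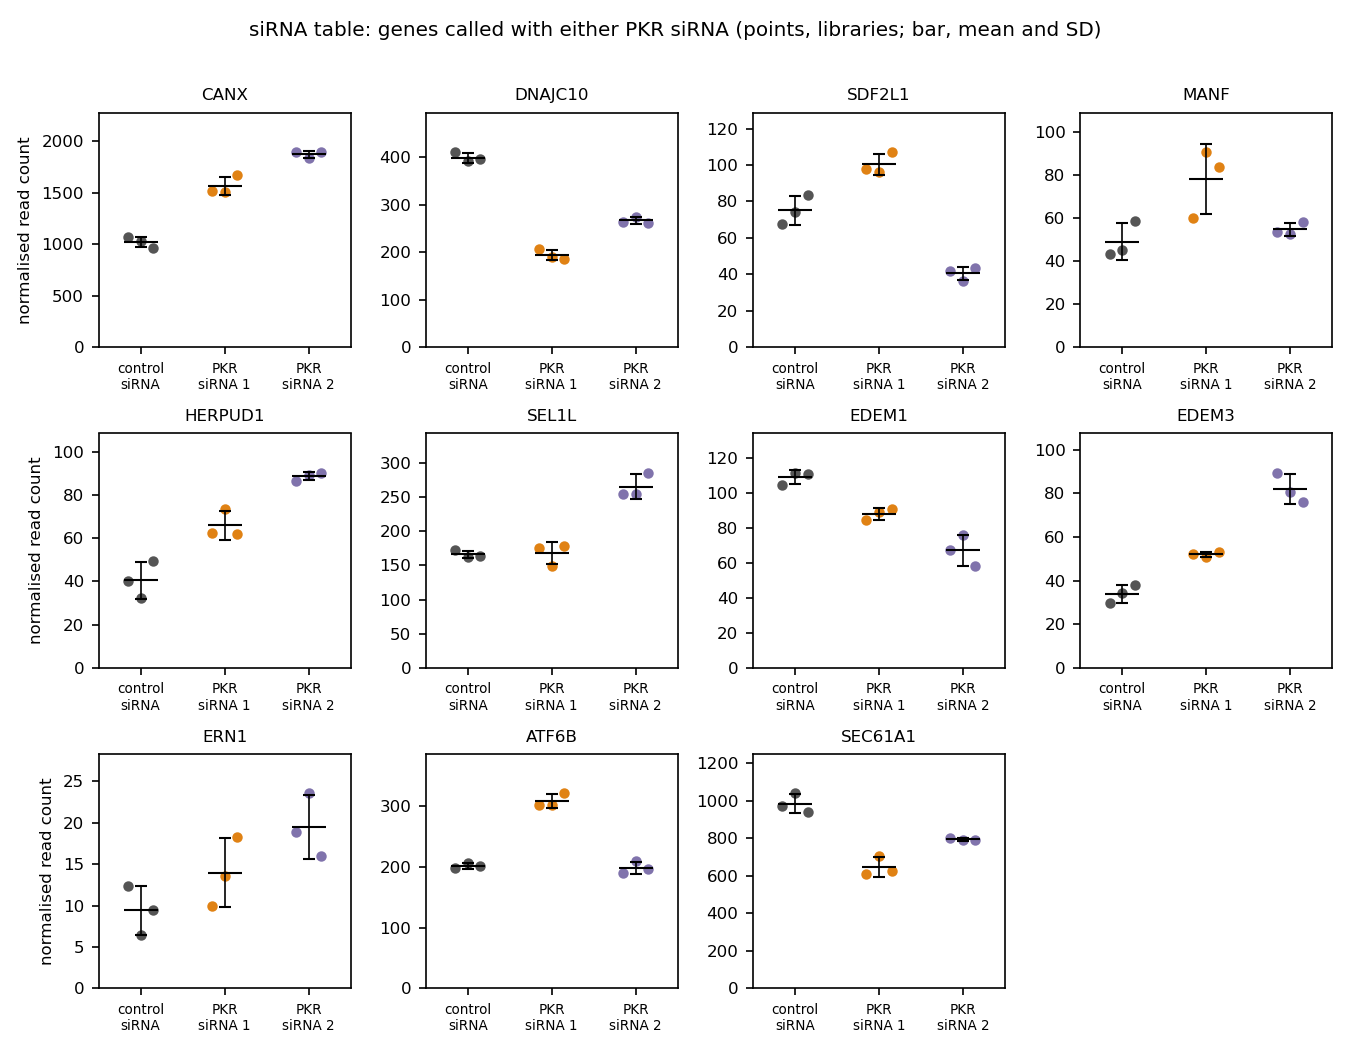
Normalised read counts of the 11 genes called with either PKR siRNA, with 1 point per library and the mean and SD of 3 libraries as a bar, on axes that start at 0. CANX, HERPUD1 and EDEM3 are above the control with both siRNAs and highest with siRNA 2, DNAJC10 and SEC61A1 are lowest with siRNA 1, and SDF2L1 and EDEM1 are lowest with siRNA 2.

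Among the 9 degradation genes, 2 were raised with siRNA 1 (HERPUD1 and EDEM3), 3 were raised (HERPUD1, SEL1L and EDEM3) and 1 lowered (EDEM1) with siRNA 2, and 1 was raised at each dose of C16 (EDEM1). Over all genes, 8.53%, 10.8%, 7.08% and 11.6% were raised in these comparisons, so that 1 of 9 with C16 was near the share of all genes. HERPUD1 (chr16:56932090-56943881, plus strand), a membrane protein that gathers the retrotranslocation complex, had 40.0, 32.2 and 49.3 counts with the control siRNA, 62.2, 73.5 and 61.8 with siRNA 1 and 86.5, 89.0 and 90.3 with siRNA 2. It was raised by 0.70 (SE 0.15, adjusted p = 9.61e-05) and 1.13 (SE 0.15, adjusted p = 2.02e-09), without overlap of the groups. The value with siRNA 1 was 0.55 without control replicate 2. With C16 it overlapped DMSO, at 24.3, 43.8 and 37.3 with DMSO, 54.2, 36.9 and 58.5 at 400 nM and 27.2, 41.4 and 44.8 at 800 nM. These gave 0.51 (adjusted p = 0.0608) and 0.11 (adjusted p = 0.681). The former passed both thresholds without DMSO replicate 2 (0.68, adjusted p = 0.0266) or 400 nM replicate 2 (0.71, adjusted p = 0.0192).

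The EDEM genes encode mannosidase-like proteins that mark glycoproteins for degradation, and the 3 of them did not move alike. EDEM3 (chr1:184690491-184754907, minus strand) had 29.8, 34.4 and 37.9 counts with the control siRNA, 52.2, 50.8 and 53.1 with siRNA 1 and 89.5, 80.4 and 76.2 with siRNA 2. It was raised by 0.60 (SE 0.16, adjusted p = 0.00130) and 1.25 (SE 0.16, adjusted p = 4.15e-10), and the former was 0.51 without control replicate 1 and 0.55 with a pseudocount of 5. EDEM1 (chr3:5187674-5219965, plus strand) had 105, 112 and 111 counts with the control siRNA, 84.4, 88.9 and 90.7 with siRNA 1 and 67.6, 76.1 and 58.3 with siRNA 2. It was lowered with siRNA 2 (-0.70, SE 0.13, adjusted p = 4.08e-06) and had -0.31 (adjusted p = 0.0427) with siRNA 1. The siRNA groups of both genes were clear of the control group. EDEM2 had -0.07 (adjusted p = 0.710) and -0.47 (adjusted p = 0.00241).

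With C16, EDEM1 stood on the other side of its control. It had 35.9, 52.4 and 43.4 counts with DMSO, 59.6, 84.2 and 57.4 at 400 nM and 75.6, 63.4 and 64.9 at 800 nM. It was raised by 0.59 (SE 0.16, adjusted p = 0.00427) and 0.63 (SE 0.16, adjusted p = 0.00119). Every C16 library was above every DMSO library, but the calls rested on single libraries. The value at 400 nM was 0.55 with a pseudocount of 5, 0.58 after median-of-ratios rescaling, 0.46 without DMSO replicate 1 and 0.42 (adjusted p = 0.0879) without 400 nM replicate 2, and that at 800 nM was 0.50 without DMSO replicate 1 and 0.55 without 800 nM replicate 1. EDEM3 had 52.5, 64.8 and 65.5 counts with DMSO, 65.9, 57.7 and 59.6 at 400 nM and 50.4, 54.8 and 49.6 at 800 nM, for 0.01 (adjusted p = 0.975) and -0.23 (adjusted p = 0.232). EDEM2 had 0.27 and 0.13, with no adjusted p under 0.05.

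SEL1L (chr14:81471547-81533861, minus strand) and SYVN1 (HRD1) form the core of the main retrotranslocation ubiquitin ligase. SEL1L had 173, 162 and 163 counts with the control siRNA, 176, 149.7 and 179 with siRNA 1 and 255, 255 and 286 with siRNA 2. It was raised with siRNA 2 (0.67, SE 0.09, adjusted p = 1.99e-09) and level with the control with siRNA 1 (0.01, 95% interval -0.17 to 0.19). SYVN1 had -0.04 and -0.03 (95% intervals -0.25 to 0.17 and -0.24 to 0.18). With C16, SEL1L had 0.12 and 0.15, and SYVN1 had 0.14 and -0.21, with no adjusted p under 0.05. OS9, a lectin that recruits glycoproteins to this ligase, was higher with siRNA 2 (0.33, adjusted p = 2.90e-05) and lower at 800 nM C16 (-0.38, adjusted p = 1.35e-04). DERL1, a derlin of the retrotranslocation site, was lower with siRNA 1 (-0.46, adjusted p = 2.16e-05) and higher at 800 nM C16 (0.49, adjusted p = 1.48e-04). DERL2, another derlin, had values between -0.22 and 0.35 in the 4 comparisons with no adjusted p under 0.05, although without 800 nM replicate 1 its value at 800 nM was 0.59 and called.

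The 4 genes grouped as sensors with XBP1 each behaved differently. XBP1 (chr22:28794560-28800572, minus strand) had 70.9, 39.0 and 51.8 counts with DMSO, 76.6, 79.6 and 81.9 at 400 nM and 76.7, 75.6 and 63.9 at 800 nM. DMSO replicate 1 was the highest of its group and overlapped the 800 nM group. XBP1 was raised at 400 nM (0.59, SE 0.16, adjusted p = 0.00296) by hardly more than 1.5-fold, and at 800 nM it had 0.45 (SE 0.16, adjusted p = 0.0161). The call at 400 nM was lost in 7 of 15 alternative fits: without DMSO replicate 2 (0.38), DMSO replicate 3 (0.58) or 400 nM replicate 3 (0.57), with a pseudocount of 5 (0.55), after median-of-ratios rescaling (0.58), and with edgeR (0.56) or DESeq2 (0.55) on recovered reads. At 800 nM it was gained without DMSO replicate 1 (0.66, adjusted p = 8.35e-04). In the siRNA table XBP1 had 88.3, 76.3 and 96.7 counts with the control siRNA, 111, 104 and 118 with siRNA 1 and 71.6, 56.8 and 79.0 with siRNA 2, for 0.35 (adjusted p = 0.0228) and -0.34 (adjusted p = 0.0294). Counts per gene do not separate the spliced from the unspliced mRNA, so that IRE1α activity was not measured.

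ATF6B (chr6:32115268-32128240, minus strand), the paralog of ATF6, was the only one of the 31 genes tested that was lowered with C16. It had 118, 104 and 152 counts with DMSO, 102, 99.2 and 75.5 at 400 nM and 59.5, 49.96 and 51.5 at 800 nM. The groups descended without overlap. The log2 fold change was -0.42 (SE 0.14, adjusted p = 0.0190) at 400 nM and -1.18 (SE 0.14, adjusted p = 2.71e-10) at 800 nM. In the siRNA table it had 197, 206 and 201 counts with the control siRNA, 302, 302 and 321 with siRNA 1 and 190.0, 209 and 197 with siRNA 2. It was raised with siRNA 1 (0.61, SE 0.08, adjusted p = 2.69e-09), with 0.58 without siRNA 1 replicate 3, and had -0.02 (95% interval -0.19 to 0.14) with siRNA 2. The reads of ATF6B may be split over the copies of the gene named above, and the part of this in its values was not tested.

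ATF6 had means of 102, 76.5 and 137 counts with the control siRNA, siRNA 1 and siRNA 2, and log2 fold changes of -0.41 (adjusted p = 0.00257) and 0.42 (adjusted p = 0.00188). With C16 it had 0.37 (adjusted p = 0.0509) and 0.03 (adjusted p = 0.901). ERN1 (chr17:64043030-64130142, minus strand), which encodes IRE1α, was near the limit of detection, with 12.3, 6.45 and 9.48 counts with the control siRNA, 10.00, 13.6 and 18.3 with siRNA 1 and 18.9, 23.6 and 16.0 with siRNA 2. It was raised with siRNA 2 (log2 fold change 1.0, SE 0.32, adjusted p = 0.00636), and without control replicate 2 the value was 0.78 (adjusted p = 0.0527). In the C16 table it had 1.94, 6.67 and 5.33 counts with DMSO, 18.1, 17.3 and 10.6 at 400 nM and 9.08, 14.6 and 5.73 at 800 nM, below the minimum mean for a test. The 400 nM group was above the DMSO group, and the 800 nM group overlapped both.

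SEC61A1 (chr3:128052369-128071683, plus strand), the channel-forming subunit of the translocon, was lowered with siRNA 1 and raised with 800 nM C16. It had 974, 1042 and 941 counts with the control siRNA, 608, 707 and 624 with siRNA 1 and 805, 792 and 791 with siRNA 2. The log2 fold changes were -0.61 (SE 0.06, adjusted p = 5.08e-15) and -0.31 (SE 0.06, adjusted p = 6.23e-06), and the former was -0.57 without control replicate 2 or siRNA 1 replicate 1. With DMSO it had 491, 480.0 and 496 counts, at 400 nM 667, 693 and 729, and at 800 nM 822, 767 and 829. The groups did not overlap in either table. The log2 fold changes with C16 were 0.51 (SE 0.07, adjusted p = 1.19e-08) and 0.72 (SE 0.07, adjusted p = 8.78e-14). SEC61B, a small subunit of the same channel, was higher with siRNA 1 (0.30, adjusted p = 0.0300), and had -0.27 (adjusted p = 0.05002) with siRNA 2 and 0.17 and 0.24 with C16. SSR1, of the translocon-associated complex, was higher at 800 nM C16 (0.26, adjusted p = 0.0221) and had values between -0.14 and -0.01 in the other 3 comparisons.

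DNAJC10, EDEM1 and SDF2L1, like SEC61A1, were lowered with one of the siRNAs and raised with C16 at 800 nM. The 2 experiments were normalised apart and sequenced in different runs, and the difference between them was not tested. CANX was raised with both siRNAs and had 0.23 and 0.45 with C16, HERPUD1 and EDEM3 were raised with both siRNAs and were not called at either dose, and MANF was raised with siRNA 1 and at both doses.

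The PKR siRNAs were compared directly, since they lower the same target. With siRNA 2 against siRNA 1, 4 of the 32 genes were raised and 4 lowered, beside 16.4% and 15.3% of all genes. By the adjusted p alone, 11 were higher and 12 lower, beside 27.7% and 29.3%. CALR, SEL1L, EDEM3 and ATF6 were higher with siRNA 2, by 0.59, 0.66, 0.64 and 0.84. SDF2L1, XBP1, DNAJB9 and ATF6B were lower with siRNA 2, with log2 fold changes of -1.29, -0.69, -0.66 and -0.63. The adjusted p of SDF2L1 was 1.63e-12 and that of ATF6 3.54e-09. Several of these calls rested on 1 library. CALR, just over 1.5-fold, lost its call without siRNA 1 replicate 2 or siRNA 2 replicates 1 or 3 (lowest 0.56). SEL1L (0.58) lost it without siRNA 1 replicate 2, EDEM3 (0.58) without siRNA 2 replicate 1, and XBP1 (-0.55) and DNAJB9 (-0.52) without siRNA 2 replicate 2, while MANF (-0.48, adjusted p = 0.00719) gained one without siRNA 1 replicate 1 (-0.66), DERL2 without siRNA 1 replicate 2 (-0.70) and SEC61B without siRNA 2 replicate 3 (-0.60).

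The 2 doses of C16 differed less. At 800 nM against 400 nM, 0 of the 31 genes were raised and 1, ATF6B, was lowered (-0.76, SE 0.14, adjusted p = 6.60e-05), beside 1.13% and 3.95% of all genes. By the adjusted p alone, 6 were higher and 2 lower, beside 5.09% and 9.18%. The 6 were HSP90B1 (0.26), CANX (0.22), DNAJB11 (0.37), DNAJC10 (0.34), SEC61A1 (0.21) and SSR1 (0.40), and the lower ones were ATF6B and OS9 (-0.37). DNAJB9 had 0.57 (95% interval 0.12 to 1.01, adjusted p = 0.0732) and was called without 400 nM replicate 1 (0.72). For the other raised genes the interval between the doses included 0. It was -0.18 to 0.05 for HSPA5, -0.18 to 0.11 for HYOU1, -0.32 to 0.30 for SDF2L1, -0.20 to 0.46 for MANF, -0.29 to 0.36 for EDEM1 and -0.45 to 0.17 for XBP1.

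The other genes of these pathways were counted from a list of 109, of which 101 were tested in each table. Of these 101, 14 were raised and 9 lowered with siRNA 1, 10 and 8 with siRNA 2, 9 and 2 at 400 nM C16, and 17 and 9 at 800 nM. These include the genes downstream of PERK and ATF4 described last. Without those, 3 of 88 were raised and 9 lowered with siRNA 1, 5 and 7 with siRNA 2, and of 87, 1 and 2 at 400 nM and 8 and 7 at 800 nM. Over all genes, 8.53% and 12.6%, 10.8% and 12.8%, 7.08% and 5.45%, and 11.6% and 14.1% were raised and lowered. The raised share of the 101 was 13.9%, 9.90%, 8.91% and 16.8%, above that of all genes except with siRNA 2. Without the genes downstream of PERK and ATF4, the raised share was below that of all genes in each comparison. Of 28 other folding genes tested, 1 and 4 were raised at 400 nM and 800 nM and 1 and 3 were lowered. At 800 nM, DNAJC1, an ER membrane J protein, rose by 0.99, TMX1, a transmembrane thioredoxin, by 0.87, and FKBP14, a prolyl isomerase, by 0.80, which were the 3 largest changes there. FKBP9, another prolyl isomerase, stood at -2.10 with siRNA 1 and 0.63 with siRNA 2, and ERO1A, the oxidase that supplies disulfide bonds, at -2.30 with siRNA 2. Of the other degradation genes tested, 1 was raised at 800 nM and 1 lowered. RNF5, a ubiquitin ligase of the ER membrane, was lowered at both doses of C16, with a log2 fold change of -1.06 at 800 nM.

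Of 27 other translocation and glycosylation genes tested in the C16 table, 0 were called at 400 nM and 2 were raised at 800 nM, namely SRPRB (0.78), a subunit of the receptor of the signal recognition particle, and SSR3 (0.64), a subunit of the same complex as SSR1. With the siRNAs, 2 of 28 were lowered in each comparison, among them SRPRA (-1.01), the other receptor subunit, with siRNA 2. Among the other sensors and transcription factors, EIF2AK3, which encodes PERK, was raised by each siRNA (0.76 and 0.90) and by 800 nM C16 (0.96), and had 0.27 at 400 nM. It belongs, with ATF3 and DDIT3, to a list the study drew from these same samples and is no independent evidence of direction.

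The genes downstream of PERK and ATF4 were part of the 109, and of these ATF3 and DDIT3 come from the study's own selection named above. Of the 13 tested in the siRNA table, 11 were raised with siRNA 1 and 5 with siRNA 2, where 1 was lowered. Of the 14 tested in the C16 table, 8 were raised at 400 nM, and 9 were raised and 2 lowered at 800 nM. The median log2 fold changes of these genes were 0.80, 0.48, 0.87 and 0.67, beside -0.01, -0.01, 0.00 and 0.00 over all genes. The transcription factor ATF3 rose in the 4 comparisons by 1.32, 1.21, 1.95 and 1.90. PPP1R15A, the stress-induced subunit of the eIF2α phosphatase, rose by 1.29 with siRNA 1. NUPR1, a small stress-induced nuclear protein, stood at 3.27 with siRNA 2 and at -1.72 with 800 nM C16.

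Calls were found among genes with and without the promoter elements. At 400 nM C16, 4 of the 10 genes with an ERSE or ERSE-II match were raised (HSPA5, HYOU1, SDF2L1 and XBP1), with a median log2 fold change of 0.39, and 2 of the 19 tested genes with a promoter but neither element, with a median of 0.27. At 800 nM, 2 of the 10 were raised (median 0.45) and 6 of the 19 (median 0.26). DNAJB9, DNAJB11, MANF and DNAJC10, which had the largest rises among the folding genes at 800 nM, held neither ERSE nor ERSE-II in the window searched. HSP90B1, with 2 ERSE matches, and CRELD2, with 1, were not called in any comparison with a control. With siRNA 1, 2 of the 10 genes were raised and 0 lowered (median 0.31), and 3 of the 20 with neither element were raised and 2 lowered (median 0.02). With siRNA 2, 2 of the 10 were raised and 1 lowered (median 0.01), and 3 of the 20 were raised and 1 lowered (median -0.05). SDF2L1 and HERPUD1, both with ERSE-II, moved apart with siRNA 2, at -0.87 and 1.13.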

How the data were processed

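RNA-seq libraries of PANC-1 cells were made with a directional poly(A) kit. Per the labels and the study's methods, the authors aligned reads to hg38 with TopHat, counted them per gene with featureCounts, and scaled them with TMM in TCC. Annotation, strand setting and multi-mapped reads are not given in the sources used here. The deposited values are TMM-scaled read counts per gene, a signal and not raw counts, in 2 tables normalised apart. In all 18 libraries 100% of values were whole multiples of 1 read (tolerance 0.01), so reads were recovered for depth and for edgeR and DESeq2.

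Groups came from the labels. limma 3.58.1 (R 4.3.3, trend) was fitted to log2(value + 1) over the 9 libraries of a table, with a minimum mean of 10 per gene, Benjamini-Hochberg adjustment over all genes and calls at an adjusted p under 0.05 and a fold over 1.5. Fold changes on this scale understate low genes. Alternatives used edgeR 4.0.16, DESeq2 1.42.0, other pseudocounts (0.5 and 5), filters (none and 30) and scaling, a replicate block, only the groups compared, and each library left out. Genes called in a comparison with a control are given library by library, the others by means or fold changes. From the other pathway genes, those named are among the 3 largest called changes of a list and comparison, and further values of the same genes are given beside them. The members and lists were chosen with earlier results of these data known. The sequences of the siRNAs were not used here.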

Additional observations from a re-analysis of the deposited data

Results flagged for a closer look

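The differences between the PKR siRNAs, tested directly with limma, passed an adjusted p of 0.05 and 1.5-fold for 8 of the 32 genes. Of the 32, 12.5% were raised and 12.5% lowered, each below the 16.4% and 15.3% of all genes. Both siRNAs lowered EIF2AK2. The log2 fold change of PKR siRNA 2 against PKR siRNA 1 was 0.59 for CALR, -0.66 for DNAJB9, -1.29 for SDF2L1, 0.66 for SEL1L, 0.64 for EDEM3, -0.69 for XBP1, 0.84 for ATF6 and -0.63 for ATF6B. SDF2L1, ATF6 and CALR were on opposite sides of the control with the siRNAs, in every library of each group. Between the doses of C16, ATF6B alone was called, with -0.76 at 800 nM against 400 nM, and its 3 libraries at 800 nM (49.96 to 59.5 counts) were below all others of the table. Groups of 3 were not searched for single outlying values.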

How the results depend on the processing

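Of the counts of genes recomputed under alternatives, 290 stayed within 1.5 times the value above and 30 did not, most of them because the 1.5-fold requirement was dropped. The 32 genes then gave 12 higher and 6 lower for siRNA 1, 10 and 9 for siRNA 2, 15 and 1 at 400 nM, 19 and 2 at 800 nM, 11 and 12 between the siRNAs and 6 and 2 between the doses, and the other pathway genes gave 32 and 22, 27 and 22, 24 and 15, and 34 and 19 in the 4 comparisons with a control. At 400 nM, 2 members were raised with a pseudocount of 5 (HSPA5 and HYOU1) and 3 after median-of-ratios rescaling. Leaving out 1 library gave 3 to 5 raised and 1 to 2 lowered with siRNA 1, 4 to 6 raised at 400 nM, 6 to 9 raised at 800 nM, 2 to 4 raised and 2 to 5 lowered between the siRNAs, and 0 to 1 raised between the doses. The minimum mean was applied anew in these fits. ERN1 was therefore tested without any 1 DMSO library, or without 800 nM replicate 1 or 3, and those C16 counts can include it. At 400 nM without DMSO replicate 1, HYOU1 (0.57), SDF2L1 (0.58) and EDEM1 (0.46) all lost their calls. Directions reversed only for values near 0. SEL1L with siRNA 1 ranged from -0.033 to 0.093 with 1 library left out (-0.003, -0.021 and -0.033 without control replicate 2 or siRNA 1 replicates 1 or 3), and ATF6B with siRNA 2 from -0.060 to 0.0092 (the latter without siRNA 2 replicate 1). EDEM3 at 400 nM had -0.0054 after median-of-ratios rescaling, -0.0090 with edgeR and -0.015 with DESeq2, and ranged from -0.094 to 0.063 with 1 library left out, and HERPUD1 at 800 nM ranged from -0.12 to 0.33, below 0 without DMSO replicate 1 or 800 nM replicate 3. The cause was not tested. Over all genes, edgeR on recovered reads called 955 raised and 1310 lowered for siRNA 1, 1244 and 1313 for siRNA 2, 697 and 620 at 400 nM and 1229 and 1425 at 800 nM, and limma 904 and 1331, 1140 and 1353, 705 and 543, and 1158 and 1403. Between the doses DESeq2 called 51 raised and 137 lowered, and limma 113 and 394. Correlations between same-numbered libraries of different groups were -0.05 to 0.03, and those between differently numbered ones reached at most 0.05. The best match was a same-numbered library for most siRNA libraries and for no C16 library. With all values this near 0, the check cannot tell whether replicate numbers paired the libraries. With a replicate block the 32 genes gave 5 raised and 2 lowered with either siRNA, 6 and 0 at 400 nM and 8 and 1 at 800 nM, as without it. ERN1 was under the minimum mean over all libraries of the C16 table and was not tested there in the main fit.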
